A study of Homo sapiens with 18 samples.

Results

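The EGR, NR4A and NAB genes were followed through RNA sequencing of 2 mantle cell lymphoma lines, JEKO1 and MAVER, treated for 6 h with an inhibitor or with the solvent DMSO. The rule took the rows of 8 named genes, EGR1, EGR2, EGR3, NR4A1, NR4A2, NR4A3, NAB1 and NAB2, out of 25369 genes listed in each line's table, and all 8 were found in both tables. There were 6 groups of n = 3 libraries lettered A, B and C. JEKO1 cells had IB, read as the BTK inhibitor ibrutinib, at 0.4 µM, or DMSO. MAVER cells had IB at 0.4 µM, KPT, read as the XPO1 inhibitor selinexor, at 1.5 µM, PU, for which the sources used here give neither identity nor dose, or DMSO. Both lines are established B cell lymphoma lines that overexpress cyclin D1, and all 6 groups were grown in the same medium with serum. The labels call the replicates biological, but do not say how the cultures were kept apart. The p-values therefore describe the spread among the sequenced libraries, which may be partly technical.

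EGR1, EGR2 and EGR3 are zinc finger transcription factors whose genes are switched on within minutes when a cell is stimulated, largely through ERK signalling and the serum response factor. NR4A1, NR4A2 and NR4A3 are orphan nuclear receptors that are induced as quickly, largely through calcium, calcineurin and MEF2 or CREB. In B cells, antigen receptor signalling through BTK, the target of ibrutinib, feeds both routes, and NR4A1 is widely used as a reporter of recent receptor signalling. NAB1 and NAB2 bind EGR proteins and repress their targets. NAB2 is itself an EGR target gene in several cell types and forms a negative feedback loop, whereas NAB1 is mostly expressed without stimulation.

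The stretches next to the starts of 4 of these genes are shown because they hold the letters by which the families are usually wired, serum response factor boxes before EGR genes and EGR boxes before NAB genes. Promoters of RefSeq (GRCh38.p14) were matched by symbol for 6 of the 8 genes, in 11 windows of 300 bases, and neither EGR3 nor NR4A2 was matched. Each line gives the 150 bases before an annotated start, 5′ to 3′ on the gene's strand, and capitals mark the motif letters.
EGR1 (chr5:138465329-138465478, plus strand, CArG boxes in capitals): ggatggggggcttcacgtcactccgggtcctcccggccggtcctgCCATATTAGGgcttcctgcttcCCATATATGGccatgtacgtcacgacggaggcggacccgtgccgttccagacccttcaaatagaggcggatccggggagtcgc
EGR2 (chr10:62816367-62816516, minus strand, CArG box in capitals): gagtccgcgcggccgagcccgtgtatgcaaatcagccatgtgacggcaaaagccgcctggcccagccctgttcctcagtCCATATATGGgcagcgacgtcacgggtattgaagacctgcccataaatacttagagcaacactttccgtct
NAB1 (chr2:190648745-190648894, plus strand, EGR sites in capitals): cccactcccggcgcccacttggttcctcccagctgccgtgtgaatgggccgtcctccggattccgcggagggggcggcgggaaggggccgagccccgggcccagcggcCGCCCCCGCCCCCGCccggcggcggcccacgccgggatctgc
NAB2 (chr12:57088964-57089113, plus strand, EGR site in capitals): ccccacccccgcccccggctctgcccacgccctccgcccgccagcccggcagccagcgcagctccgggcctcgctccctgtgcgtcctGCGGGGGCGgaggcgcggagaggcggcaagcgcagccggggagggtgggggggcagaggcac

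EGR1 held 2 CArG boxes, the letters bound by serum response factor, at -105 to -96 and -83 to -74 from its start. One of the annotated EGR2 starts had 1 such box, at -71 to -62. A CArG box was present in 454 of 35116 RefSeq promoter windows of the same length, which is 1.29%. The EGR site GCGGGGGCG stood at -62 to -54 in NAB2 and, on the opposite strand, at -42 to -34 and -36 to -28 in NAB1, where the 2 matches overlap each other. GCGGGGGCG was present in 5.07% of all windows. The other EGR site searched, GCGTGGGCG, was found in 0.795% of all windows and, among these genes, after the first NAB1 start, at 14 to 22. The same site lies before the next annotated NAB1 start, at -175 to -167, because the windows of these starts overlap. Both strands were searched for these letters, for the cAMP response element TGACGTCA (1.85% of windows) and for the NR4A monomer site AAAGGTCA (1.22% of windows). Neither of the last pair, and none of the 5 motifs in NR4A1 or NR4A3, was found in the windows of these genes. The windows of the other EGR2 starts and of the NAB1 start furthest downstream also held none of the 5 motifs. These matches describe letters in a window and say nothing about binding in these cells.

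Recovered depth was 5374226 to 17040599 reads per library and lowest with KPT, at 5374226 to 7924550. B cell markers were high throughout, with summed normalized counts of 26094 to 27947 in JEKO1 and 26310 to 32012 in MAVER, and the erythroid marker HBB was at 0 in all libraries. Summed T cell markers were 6.90 to 15.6 in JEKO1, with CD2 at 0, and 0 to 1.19 in MAVER, and summed monocyte markers reached 11.4. Of the epithelial markers, EPCAM stood at 154 to 299 in MAVER and at 3.35 to 17.2 in JEKO1. RNA45S5, the ribosomal RNA precursor, stood apart at 53819 and 66933 in KPT replicates A and C and at 65331 in JEKO1 DMSO replicate C. The drug targets were measured in every library: XPO1 transcript rose with KPT in MAVER by 1.10 ± 0.04 on the log2 scale (SE, limma adjusted p = 8.17e-24), and BTK transcript moved by at most 0.30 in any comparison with DMSO. Of 10632 genes tested for IB in both lines, 1415 were called in both, and 1260 of those moved in opposite directions and 155 the same way. An exchange of the JEKO1 IB and DMSO labels and an opposite response of the line cannot be told apart, so every JEKO1 direction holds for the labels as given. Levels are normalized counts, scaled separately in each line, and are compared within a line only. Fold changes are on the log2(normalized count + 1) scale, "rose" and "fell" are used of genes with a limma adjusted p (Benjamini-Hochberg over all genes tested) under 0.05, and genes with a mean under 10 over a line's libraries were not tested.

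**Figure D1:**
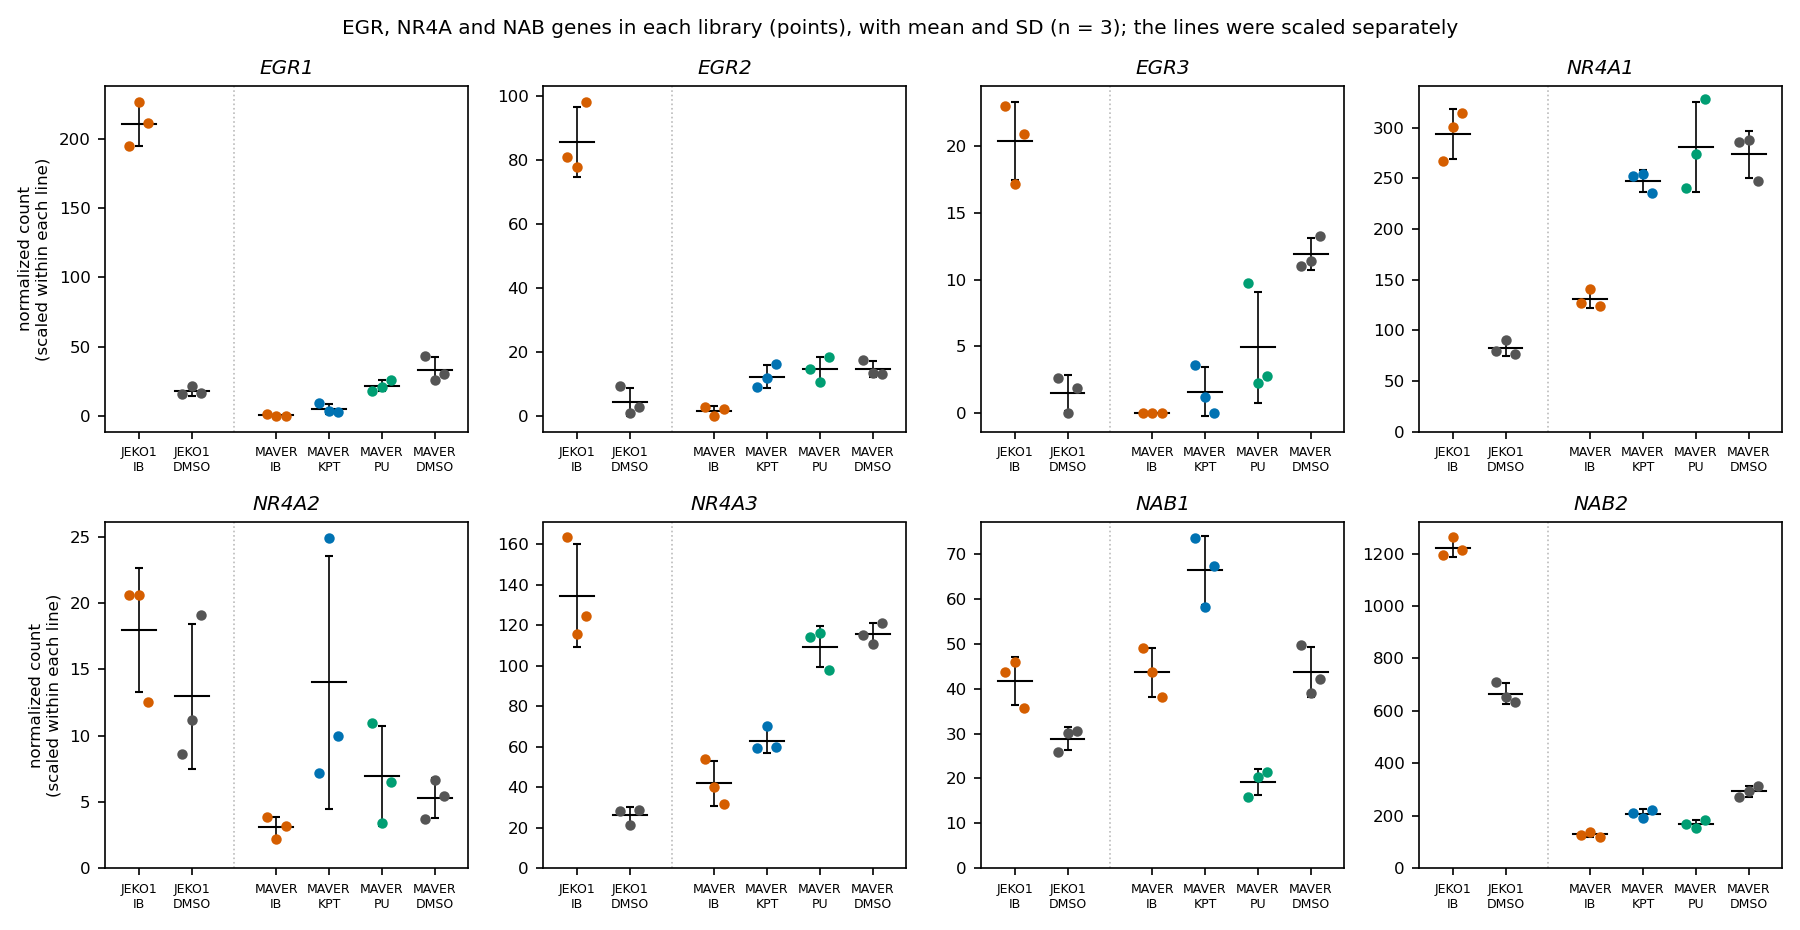
Normalized counts of the 8 genes in every library (points; y axis, scaled within each line), by group, with the group mean (line) and SD (bar), n = 3. In JEKO1 the libraries labelled IB lie above the DMSO libraries for EGR1, EGR2, EGR3, NR4A1, NR4A3, NAB1 and NAB2, while in MAVER the IB libraries lie below the DMSO libraries for EGR1, EGR2, EGR3, NR4A1, NR4A3 and NAB2.

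EGR1 had the largest estimates of the tested members with IB and with KPT in MAVER. It stood at 0.963, 0 and 0 normalized counts in MAVER IB replicates A, B and C, at 8.97, 3.56 and 2.49 with KPT, at 18.2, 21.0 and 26.1 with PU, and at 43.3, 25.7 and 30.5 with DMSO. The IB and KPT libraries lay below every DMSO library and did not overlap each other, whereas the highest PU library passed the lowest DMSO library. EGR1 fell by 4.74 ± 0.45 with IB on the log2 scale (SE, limma adjusted p = 4.06e-11) and by 2.62 ± 0.45 with KPT (limma adjusted p = 4.42e-06). The IB value rests on 1 read in the 3 IB libraries against 113 in the 3 DMSO libraries, a depth-corrected ratio of 0.0105 with a 95% exact interval of 0.000264 to 0.0598 for counting error only. Its log2 value was -2.82 with a pseudocount of 5 and -6.14 by edgeR, each past the threshold, and the KPT value was -1.96 with a pseudocount of 5. With PU the estimate was -0.57, with a 95% interval of -1.48 to 0.34 and a limma adjusted p of 0.295. EGR1 was called lower with PU by edgeR (adjusted p = 0.0386) and by limma on the PU and DMSO libraries alone (adjusted p = 0.0428). In bulk RNA, fewer cells that express a gene and less RNA per cell cannot be told apart.

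In JEKO1, EGR1 lay on the other side of its control. It stood at 195, 227 and 211 normalized counts in the JEKO1 libraries labelled IB, against 15.5, 21.2 and 16.2 in the DMSO libraries, which averaged 211 ± 15.8 and 17.7 ± 3.12 (SD, n = 3 each). The groups were far apart, and EGR1 rose by 3.52 ± 0.17 on the log2 scale (SE, limma adjusted p = 1.36e-12).

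EGR2, which in lymphocytes restrains activation together with EGR3, moved with IB in the same directions as EGR1 but was not called with KPT. It stood at 81.0, 78.0 and 98.4 normalized counts in the JEKO1 libraries labelled IB, against 9.49, 1.12 and 2.86 with DMSO, and rose by 4.29 ± 0.41 on the log2 scale (SE, limma adjusted p = 4.57e-08). DMSO replicate A was the highest of its group, and the estimate was 4.92 without it and 3.35 with a pseudocount of 5. In MAVER, EGR2 was at 2.89, 0 and 2.12 with IB, at 8.97, 11.9 and 16.2 with KPT, at 14.6, 10.8 and 18.6 with PU, and at 17.5, 13.3 and 13.3 with DMSO. Only the IB libraries stood clear of the DMSO libraries, with 5 reads in all against 50, and the KPT and PU libraries overlapped them. EGR2 fell by 2.76 ± 0.45 with IB (SE, limma adjusted p = 6.75e-06), by 2.16 without IB replicate B, which held no read, and by 1.58 with a pseudocount of 5. The KPT estimate was -0.26 (95% interval -1.17 to 0.65, limma adjusted p = 0.644) and the PU estimate was -0.02 (95% interval -0.93 to 0.88, limma adjusted p = 0.969).

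EGR3 had the fewest reads of the family. In the JEKO1 libraries labelled IB it stood at 23.0, 17.2 and 20.9 normalized counts, against 2.59, 0 and 1.91 with DMSO, with no overlap. It rose by 3.28 ± 0.51 on the log2 scale (SE, limma adjusted p = 2.87e-05), and by 1.98 with a pseudocount of 5. EGR2 and EGR3 passed the filter on low values in JEKO1 through the libraries labelled IB, since their DMSO means were 4.49 and 1.50. In MAVER, EGR3 did not pass it: the values were 0, 0 and 0 with IB, 3.59, 1.19 and 0 with KPT, 9.73, 2.27 and 2.79 with PU, and 11.1, 11.4 and 13.3 with DMSO. Every treated library lay below every DMSO library, and PU replicate A was the closest. No EGR3 read was found in the IB libraries against 41 with DMSO, so the gene was at least 11.5-fold lower with IB, taking a floor of 3 reads over the group. The exact 95% interval of the ratio, for counting error only, reaches to 8.94-fold lower. With KPT 3 reads were found, a depth-corrected ratio of 0.113 (95% exact interval 0.0225 to 0.356, counting error only). Fitted without the filter, EGR3 had a limma adjusted p of 2.50e-05 for IB, 0.000369 for KPT and 0.0477 for PU, each with a negative estimate.

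NR4A1, the nuclear receptor also called NUR77, moved with IB in both lines and was not called with KPT or PU. It stood at 267, 300 and 315 normalized counts in the JEKO1 libraries labelled IB, against 80.2, 90.5 and 76.3 with DMSO. The JEKO1 groups did not overlap, and NR4A1 rose by 1.82 ± 0.11 on the log2 scale (SE, limma adjusted p = 5.96e-11). In MAVER it stood at 127, 141 and 124 with IB, at 253, 254 and 235 with KPT, at 241, 274 and 329 with PU, and at 286, 288 and 247 with DMSO. The IB libraries formed a group of their own at the bottom, and the other 9 libraries of the line overlapped. NR4A1 fell by 1.06 ± 0.10 with IB (SE, limma adjusted p = 4.91e-11). The KPT estimate was -0.14 (95% interval -0.35 to 0.06, limma adjusted p = 0.240) and the PU estimate was 0.03 (95% interval -0.18 to 0.24, limma adjusted p = 0.828).

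NR4A3, the receptor also called NOR1, differed from NR4A1 in that it also fell with KPT. Its normalized counts were 164, 116 and 125 in the JEKO1 libraries labelled IB, against 28.5, 21.2 and 28.6 with DMSO, again without overlap, and it rose by 2.32 ± 0.18 on the log2 scale (SE, limma adjusted p = 2.63e-09). In MAVER, NR4A3 stood at 53.9, 40.2 and 31.9 with IB, at 59.2, 70.1 and 59.8 with KPT, at 114, 116 and 97.7 with PU, and at 115, 110 and 121 with DMSO. IB was lowest, KPT lay between, and PU overlapped DMSO. NR4A3 fell by 1.47 ± 0.16 with IB (SE, limma adjusted p = 1.85e-09) and by 0.87 ± 0.16 with KPT (limma adjusted p = 1.79e-05). The PU estimate was -0.08 (95% interval -0.41 to 0.25, limma adjusted p = 0.695).

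NR4A2, also called NURR1, was the receptor without a call in JEKO1. It stood at 20.6, 20.6 and 12.6 normalized counts in the JEKO1 libraries labelled IB, against 8.62, 11.2 and 19.1 with DMSO. The groups overlapped, and the estimate of 0.48 ± 0.34 (SE) had a 95% interval of -0.24 to 1.19 and a limma adjusted p of 0.280. In MAVER it did not pass the filter on low values, with 3.85, 2.23 and 3.19 with IB, 7.17, 24.9 and 9.97 with KPT, 10.9, 3.40 and 6.52 with PU, and 3.68, 6.67 and 5.47 with DMSO. The KPT libraries lay above every IB and DMSO library, with replicate B far above the others. Without the filter, KPT minus DMSO was 1.11 (limma adjusted p = 0.0763) and KPT minus IB was 1.72 (limma adjusted p = 0.00670).

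Of the corepressors, NAB2 moved with every agent. It stood at 1194, 1261 and 1213 normalized counts in the JEKO1 libraries labelled IB, against 710, 655 and 634 with DMSO, and rose by 0.88 ± 0.06 on the log2 scale (SE, limma adjusted p = 1.68e-10). In MAVER it stood at 127, 139 and 121 with IB, at 210, 190 and 223 with KPT, at 168, 154 and 184 with PU, and at 273, 295 and 313 with DMSO. None of the 4 MAVER groups overlapped, and their order was IB, PU, KPT and DMSO from low to high. NAB2 fell by 1.18 ± 0.10 with IB (SE, limma adjusted p = 3.22e-12), by 0.50 ± 0.10 with KPT (limma adjusted p = 7.04e-05) and by 0.80 ± 0.10 with PU (limma adjusted p = 1.35e-08). NAB2 overlaps STAT6, a transcription factor gene on the opposite strand, by 69 bases in GENCODE v29, and the sources do not say whether reads were counted by strand, so some reads may be shared. STAT6 averaged 4260 ± 224 normalized counts with IB, 4967 ± 62.6 with KPT and 4471 ± 254 with PU in MAVER, against 3875 ± 42.0 with DMSO (SD, n = 3 each). Each agent's STAT6 mean was above that of DMSO, where NAB2 was below it, but among the agents both genes had the order IB, PU, KPT from low to high. In JEKO1, STAT6 averaged 7254 ± 60.8 in libraries labelled IB and 5777 ± 286 with DMSO, the same direction as NAB2.

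NAB1 followed another pattern. It stood at 43.7, 45.9 and 35.6 normalized counts in the JEKO1 libraries labelled IB, against 25.9, 30.2 and 30.5 with DMSO. These groups did not overlap, but the estimate of 0.51 ± 0.21 on the log2 scale (SE) had a limma adjusted p of 0.0548 and is not called; edgeR called it (adjusted p = 0.0487). In MAVER, NAB1 stood at 49.1, 43.6 and 38.2 with IB, at 73.5, 58.2 and 67.3 with KPT, at 15.8, 20.4 and 21.4 with PU, and at 49.7, 39.1 and 42.2 with DMSO. PU was lowest and KPT highest, each clear of DMSO, and IB overlapped DMSO. NAB1 fell by 1.15 ± 0.20 with PU (SE, limma adjusted p = 7.83e-06). It rose with KPT by 0.59 ± 0.20 (limma adjusted p = 0.0129), a call that was lost without KPT replicate A (adjusted p = 0.0556), without DMSO replicate B (adjusted p = 0.0594) and with reads thinned to the shallowest library (adjusted p = 0.130). The IB estimate was 0.00 with a 95% interval of -0.41 to 0.41. Long noncoding genes that overlap EGR3, NR4A1 and NAB1 on the opposite strand in GENCODE v29 were not in the tables, so reads shared with them were not measured.

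**Figure D2:**
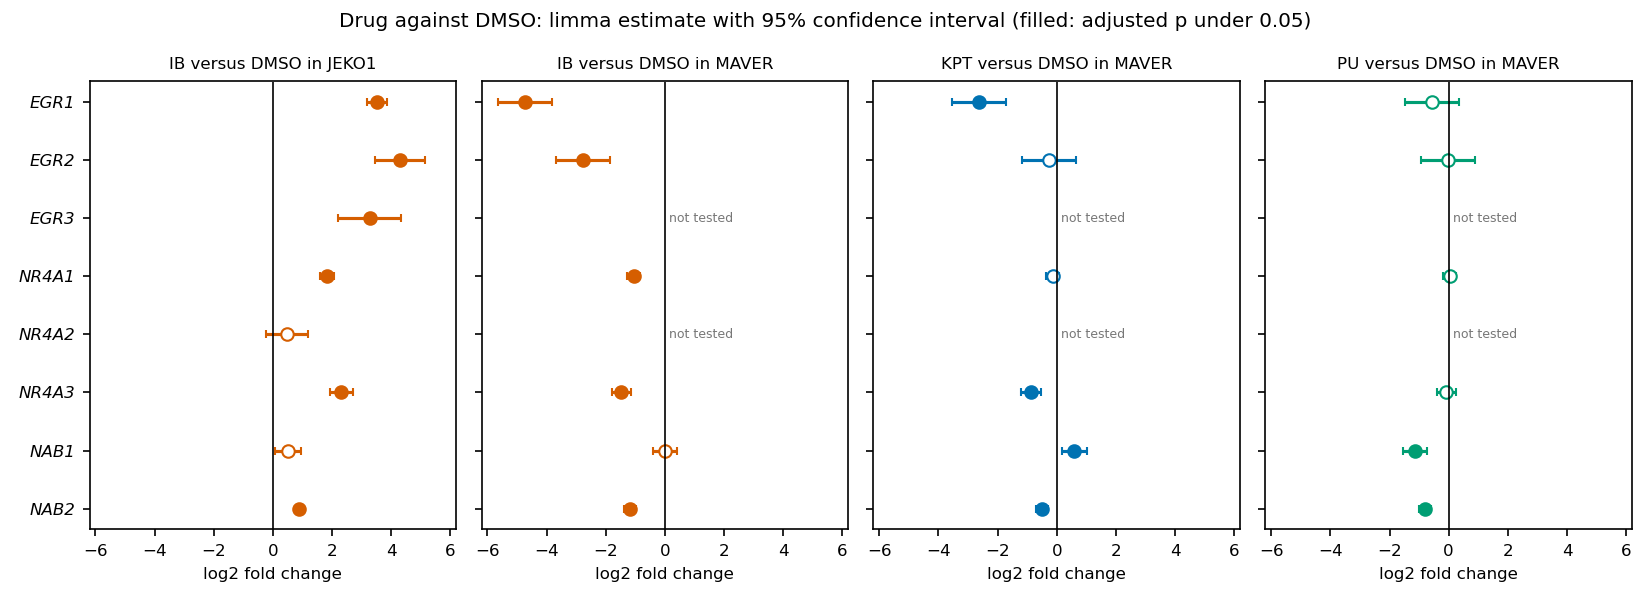
Log2 fold changes of the 8 genes against DMSO (x axis; limma estimate with 95% confidence interval), 1 panel per agent and line; filled points have an adjusted p under 0.05. IB has 6 filled points in JEKO1, all above 0, and 5 in MAVER, all below 0, whereas PU has filled points for NAB1 and NAB2.

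Counted together, 6 of the 8 genes rose in the JEKO1 libraries labelled IB and 0 fell. EGR2 and EGR3 are among the 6 and passed the filter only through the libraries where they were high, so this count and its median are a description, whereas EGR1, NR4A1, NR4A3 and NAB2 had means of at least 10 in both groups. In that comparison 21.9% of the 11609 genes tested rose and 20.2% fell. With IB in MAVER, 0 rose and 5 fell of the 6 that passed the filter, where 10.1% of 11099 genes rose and 9.65% fell. EGR1 and EGR2 averaged 0.321 and 1.67 normalized counts with IB and passed the filter through groups where they were higher. The filter set part of this count and its median, so both are a description. NR4A1, NR4A3 and NAB2, which also fell, had means of at least 10 in every MAVER group. With KPT, 1 rose and 3 fell, where 27.3% of all genes rose and 28.5% fell. EGR1 is among the 3 and averaged 5.01 with KPT, so the same limit holds there. With PU, 0 rose and 2 fell, where 27.6% rose and 27.5% fell, so the PU count lies near its background. The median log2 fold change of the tested members was 2.07 for IB in JEKO1, and in MAVER it was -1.33 for IB, -0.38 for KPT and -0.32 for PU, beside medians between -0.01 and 0.01 over all genes tested. The 3 MAVER comparisons share their DMSO libraries. Without KPT replicates A and C, which were rich in RNA45S5, 1 KPT library remains and is assumed to vary like the other groups. The log2 values were then -2.87 for EGR1, -0.71 for NR4A3, -0.62 for NAB2 and 0.41 for NAB1, the last no longer called (limma adjusted p = 0.261).

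The agents were also set against each other in MAVER, at 1.5 µM for KPT and 0.4 µM for IB and at a PU dose that is not given. With KPT, all 6 tested genes were higher than with IB: EGR2 by 2.50 (limma adjusted p = 9.48e-06), EGR1 by 2.11 (limma adjusted p = 0.000126), NR4A1 by 0.92 (limma adjusted p = 5.42e-10), NAB2 by 0.68 (limma adjusted p = 3.99e-07), NR4A3 by 0.60 (limma adjusted p = 0.00181) and NAB1 by 0.59 (limma adjusted p = 0.0130). Among all genes 27% were higher and 28.2% lower with KPT than with IB. EGR1 averaged 5.01 normalized counts with KPT and 0.321 with IB, and EGR2 averaged 1.67 with IB. Both passed the filter through groups where they were higher, so the count of 6 is a description. EGR1 was at 0.86 with a pseudocount of 5 and 3.62 by DESeq2, and EGR2 was at 1.38 with a pseudocount of 5 and at 1.90 without IB replicate B. The calls of NR4A3 (adjusted p = 0.255) and NAB1 (adjusted p = 0.182) were lost with thinned reads. The NAB1 call was also lost without KPT replicate A (adjusted p = 0.0559) and without IB replicate C (adjusted p = 0.0599). Leaving out KPT replicates A and C together leaves 1 KPT library. The differences were then 0.41 for NAB1, 0.56 for NAB2, 0.76 for NR4A3, 0.96 for NR4A1, 1.87 for EGR1 and 2.49 for EGR2.

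With PU, 5 genes were higher than with IB and 1 was lower, against a background of 27.5% higher and 27.6% lower. EGR1 and EGR2 are among the 5 and averaged 0.321 and 1.67 normalized counts with IB. They passed the filter through groups where they were higher, so this count too is a description. EGR1 was higher by 4.17 (limma adjusted p = 2.45e-10), EGR2 by 2.74 (limma adjusted p = 1.93e-06), NR4A3 by 1.39 (limma adjusted p = 1.72e-09), NR4A1 by 1.09 (limma adjusted p = 5.15e-12) and NAB2 by 0.38 (limma adjusted p = 0.00159). NAB1 was lower, at -1.15 (limma adjusted p = 8.08e-06). With a pseudocount of 5 the differences were 2.32 for EGR1 and 1.57 for EGR2, EGR1 was at 5.86 by DESeq2, and EGR2 was at 2.14 without IB replicate B. The NAB2 difference was not called with thinned reads (adjusted p = 0.155). The even background turned with the scaling, with 2559 genes higher and 3541 lower at equal library totals and 3515 higher and 2459 lower at equal upper quartiles, while 6 members were called under both.

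PU differed from KPT in both directions, with 2 of the 6 tested genes higher and 2 lower. EGR1 was higher with PU than with KPT by 2.06 (limma adjusted p = 0.000164) and NR4A3 by 0.79 (limma adjusted p = 7.47e-05), while NAB1 differed by -1.74 (limma adjusted p = 1.79e-09) and NAB2 by -0.30 (limma adjusted p = 0.0122). The EGR1 value was 1.46 with a pseudocount of 5. Among all genes 28.3% were higher and 28.6% lower, so the member counts lie near their background. EGR1 averaged 5.01 normalized counts with KPT and passed the filter through groups where it was higher, so the count of genes higher is a description. The NAB2 call was lost without KPT replicate C (adjusted p = 0.0676) and without PU replicate B (adjusted p = 0.0835). Leaving out KPT replicates A and C together leaves 1 KPT library. The differences were then -0.17 for NAB2, -1.56 for NAB1, 2.30 for EGR1 and 0.63 for NR4A3. EGR2 differed by 0.24 (limma adjusted p = 0.673) and NR4A1 by 0.17 (limma adjusted p = 0.148), although NR4A1 passed the threshold without PU replicate A (adjusted p = 0.0316).

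**Figure D3:**
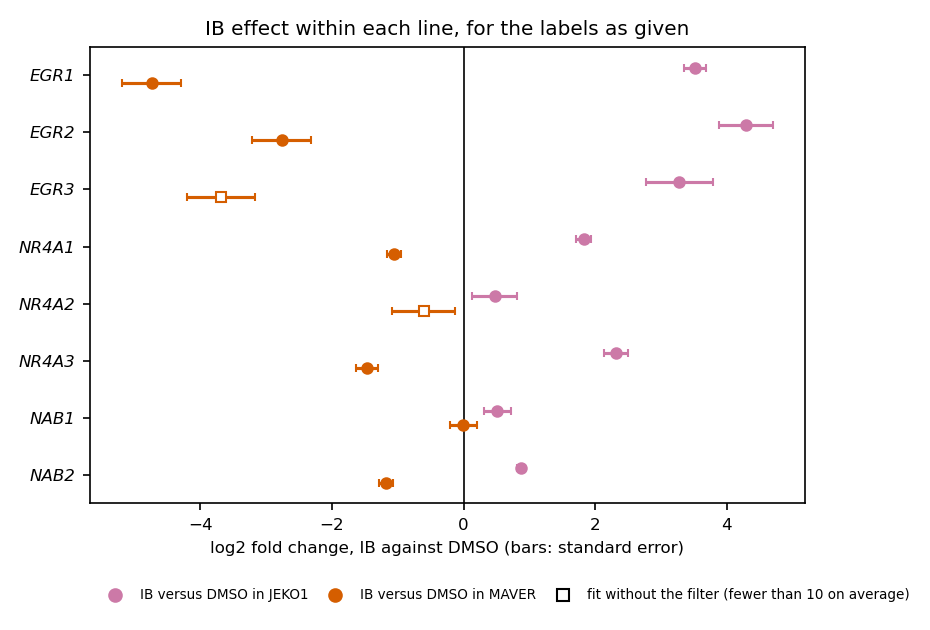
IB effect on each gene within each line (x axis, log2 fold change against DMSO; bars, SE of the limma fit), JEKO1 above MAVER in each row; open squares come from the fit without a filter on low values. EGR1, EGR2, EGR3, NR4A1, NR4A3 and NAB2 lie above 0 in JEKO1 and below 0 in MAVER, and NAB1 lies at 0.51 in JEKO1 and 0.00 in MAVER.

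Whether the IB effect differed between the lines was tested on the 12 IB and DMSO libraries, each effect taken within its own table. The JEKO1 effect minus the MAVER effect was 8.26 ± 0.42 on the log2 scale for EGR1 (SE, limma adjusted p = 1.18e-14) and 7.05 ± 0.70 for EGR2 (limma adjusted p = 6.06e-09). It was 3.79 ± 0.26 for NR4A3 (limma adjusted p = 6.98e-12), 2.88 ± 0.15 for NR4A1 (limma adjusted p = 1.96e-14) and 2.06 ± 0.10 for NAB2 (limma adjusted p = 9.34e-15). For NAB1 it was 0.51 ± 0.28 (limma adjusted p = 0.145), an interval that reaches from -0.06 to 1.08. With a pseudocount of 5 the values were 6.08 for EGR1 and 4.93 for EGR2, and EGR1 was at 10.07 by DESeq2. Without JEKO1 DMSO replicate A, EGR2 was at 7.68, and without MAVER IB replicate B at 6.45. Of the 6 genes tested in both lines, 5 had a higher effect in JEKO1 and 0 a lower one. Among all 10632 genes tested, 21.7% were higher and 19.6% lower. EGR2 averaged 4.49 normalized counts with DMSO in JEKO1, and EGR1 and EGR2 averaged 0.321 and 1.67 with IB in MAVER. They passed the filter there through groups where they were higher, so the count of 5 is a description. With the JEKO1 IB and DMSO labels exchanged, the difference was 1.22 for EGR1 (limma adjusted p = 0.0371), -1.53 for EGR2 (limma adjusted p = 0.119), -0.85 for NR4A3 (limma adjusted p = 0.0207), -0.76 for NR4A1 (limma adjusted p = 0.000544) and 0.30 for NAB2 (limma adjusted p = 0.0344).

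Other immediate early genes, which respond to the same stimuli, were counted in the same fits. Their counts and those of the lists after them are to be read beside the shares of all genes given above. Of 33 listed, 24 passed the filter in each line. In the JEKO1 libraries labelled IB 19 rose and 2 fell, with a median of 0.88 on the log2 scale. Of all genes tested there, 21.9% rose and 20.2% fell. RGS1 and ATF3 are among the 19 and had DMSO means of 8.72 and 8.42. They passed the filter through the libraries labelled IB, so it set part of that count. CD83, a surface marker of activated B cells, rose by 2.72 ± 0.08 (SE, limma adjusted p = 1.45e-15), TNFAIP3, an NF-kB feedback inhibitor, by 2.03, CD69, an early activation antigen, by 1.85 and JUN, an AP-1 subunit, by 1.85. With IB in MAVER 2 rose and 8 fell, with a median of -0.15, where 10.1% of all genes rose and 9.65% fell. JUN fell there by 1.14 (limma adjusted p = 8.74e-05), RGS2, a regulator of G protein signalling, by 1.04, JUNB by 0.65 and IER5 by 0.47. These estimates are smaller in size than those of EGR1 and EGR2 in the same libraries.

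The same list was read for the other agents. With KPT 15 of the 24 rose and 4 fell, with a median of 0.46, where 27.3% of all genes rose and 28.5% fell. SGK1 is among the 15 and averaged 8.92 with DMSO against 21.9 with KPT, so the filter may have set part of that count. RGS1 rose by 1.62 ± 0.13 (SE, limma adjusted p = 7.54e-14), DUSP1, a MAP kinase phosphatase, by 1.48, SGK1, a kinase, by 1.19 and PPP1R15A, a stress-induced phosphatase subunit, by 1.06. With PU 9 rose and 8 fell, with a median of -0.08, where 27.6% of all genes rose and 27.5% fell. RGS2 rose with PU by 2.44 ± 0.09 (limma adjusted p = 3.49e-24) and JUN by 1.23, while JUNB and IER2 each fell by 1.36.

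Genes on the route to and from ERK were read beside the EGR genes. Of 10 ERK feedback genes, 6 passed the filter in JEKO1 and all 6 rose in the libraries labelled IB, by 3.32 ± 0.21 for the phosphatase DUSP5 (SE, limma adjusted p = 9.98e-11), 2.48 for SPRED2, 1.88 for SPRY2 and 1.43 for SPRED1. SPRED2 and SPRY2 passed through the libraries labelled IB, since their DMSO means were 7.19 and 7.00, so the filter set part of that count. In MAVER 3 passed. DUSP5 fell by 1.88 ± 0.33 with IB (limma adjusted p = 1.95e-05) and by 1.05 with KPT (limma adjusted p = 0.00613), and DUSP7 fell by 0.64 with KPT and by 0.94 with PU. DUSP5 averaged 6.22 normalized counts with IB and 11.7 with KPT in MAVER, against 25.8 with DMSO. Of 21 genes of the ERK pathway and serum response factor, 10 rose and 1 fell in the JEKO1 libraries labelled IB, with a median of 0.05. In MAVER 2 rose and 3 fell with IB, 5 rose and 9 fell with KPT, and 5 rose and 7 fell with PU, with medians of -0.06, -0.07 and 0.00. Over all genes, 21.9% rose and 20.2% fell in JEKO1. The shares in MAVER were 10.1% and 9.65% with IB, 27.3% and 28.5% with KPT, and 27.6% and 27.5% with PU. RASGRP1, which activates RAS downstream of diacylglycerol, rose by 1.80 in JEKO1 and by 1.61 with PU in MAVER, and fell by 0.38 with IB and by 0.63 with KPT. Its relatives RASGRP2 and RASGRP3, in the same list, went the other way in MAVER. They rose by 0.71 and 0.59 with IB and by 0.31 and 0.40 with KPT. In JEKO1 RASGRP2 fell by 0.49 and RASGRP3 was not called (limma adjusted p = 0.113).

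Of 21 genes of the calcium, calcineurin, NFAT, MEF2 and CREB route, 20 passed in JEKO1, where 7 rose and 3 fell, with a median of 0.12. NFATC1, a calcineurin-activated factor, rose by 1.04 ± 0.06 (SE, limma adjusted p = 6.33e-11) and MEF2C by 0.88. All genes tested there gave 21.9% risen and 20.2% fallen. In MAVER 19 passed, and 2 rose and 2 fell with IB, 3 rose and 5 fell with KPT, and 4 rose and 5 fell with PU, with medians of -0.04, 0.01 and 0.01. These MAVER counts lie near or below the shares of all genes, 10.1% and 9.65%, 27.3% and 28.5%, and 27.6% and 27.5% in the same order. MEF2C fell by 0.73 with IB (limma adjusted p = 0.0203), RCAN1, a calcineurin inhibitor and NFAT target, fell by 1.19 with KPT (limma adjusted p = 2.24e-07), and CAMK4, a calcium-dependent kinase, rose by 0.44 with IB and by 0.92 with PU.

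**Figure D4:**
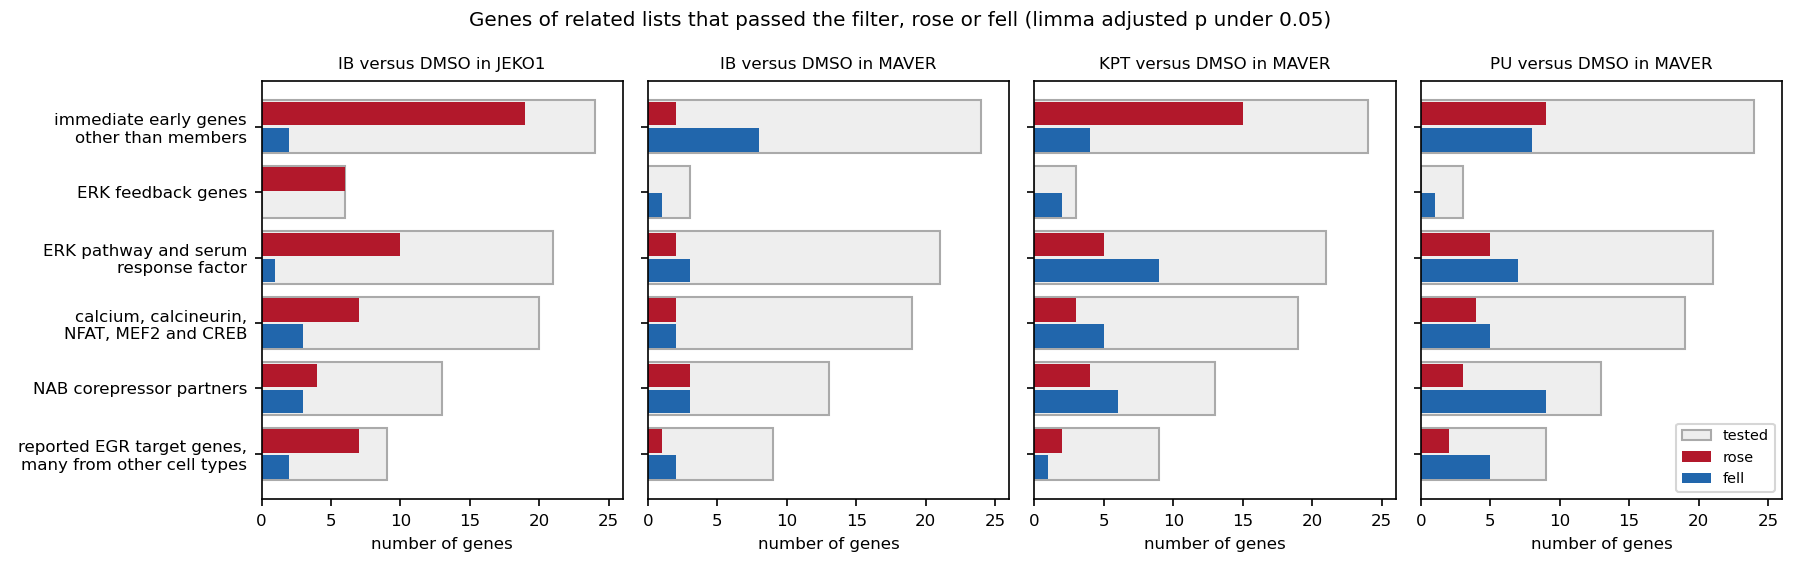
Number of genes in 6 related lists that passed the filter (grey), rose (red) or fell (blue; limma adjusted p under 0.05), 1 panel per agent and line. Of 24 other immediate early genes, 19 rose in JEKO1 with the label IB, 8 fell with IB in MAVER and 15 rose with KPT.

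NAB proteins repress through the NuRD complex, whose 13 listed subunits were tested in both lines. In the JEKO1 libraries labelled IB 4 rose and 3 fell, with a median of 0.10, and CHD4, the core ATPase, rose by 0.60 ± 0.04 (SE, limma adjusted p = 3.84e-11). In MAVER 3 rose and 3 fell with IB, 4 rose and 6 fell with KPT, and 3 rose and 9 fell with PU, with medians of 0.00, -0.11 and -0.24. Of all genes, 21.9% rose and 20.2% fell in JEKO1. For MAVER the shares were 10.1% and 9.65% with IB, 27.3% and 28.5% with KPT, and 27.6% and 27.5% with PU. CHD4 fell by 0.62 with KPT (limma adjusted p = 5.95e-17), and with PU the related ATPase CHD3 rose by 0.76 while the deacetylase HDAC2 fell by 0.61. Of 5 listed dimer partners and relatives, RXRA, with which NR4A1 and NR4A2 can pair, was the 1 that passed the filter. RXRA fell by 0.67 ± 0.10 in the JEKO1 libraries labelled IB (SE, limma adjusted p = 1.06e-05) and rose by 1.05 ± 0.07 with IB in MAVER (limma adjusted p = 1.65e-15), the opposite signs to NR4A1, and rose by 0.47 with PU.

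Of 12 genes reported as EGR targets, many of them in other cell types, 9 passed the filter. In the JEKO1 libraries labelled IB 7 rose and 2 fell, with a median of 0.67. ICAM1, an adhesion molecule, rose by 2.76 ± 0.10 (SE, limma adjusted p = 2.73e-14), TP73 by 1.86, VEGFA by 1.34 and TGFB1 by 0.68. With IB in MAVER, where EGR1 and EGR2 were nearly without reads, 1 rose and 2 fell, with a median of -0.18, and no estimate was larger in size than 0.29. With KPT 2 rose and 1 fell and with PU 2 rose and 5 fell, with medians of -0.03 and -0.34. The shares of all genes that rose and fell were 21.9% and 20.2% in JEKO1. They were 10.1% and 9.65% with IB in MAVER, 27.3% and 28.5% with KPT, and 27.6% and 27.5% with PU. CBLB, a ubiquitin ligase that restrains antigen receptor signalling, rose by 1.07 ± 0.08 with KPT (limma adjusted p = 3.53e-15) and by 0.66 with PU, and TGFB1 fell by 0.77 with PU.

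The genes whose pattern was most like that of each member were taken by the correlation over 18 libraries, centred within each line, among 9013 genes with a mean of at least 50 in each line. These values describe libraries that share the same groups and carry no test. The genes were picked on these same libraries, so a shared sign or order of agents largely follows from the choice. For EGR1 they included PAG1, a membrane adaptor of SRC family kinases (r = 0.962), and ANXA6, a calcium-dependent membrane-binding protein (r = 0.955). PAG1 had log2 fold changes of 1.20 with the label IB in JEKO1 and of -1.27, -0.57 and 0.14 with IB, KPT and PU in MAVER, the same order of agents as EGR1. For EGR2 they were the GTPase RHOC (r = 0.951), the inhibitory B cell receptor CD72 (r = 0.930) and DTX4 (r = 0.928).

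CD72 also stood near NR4A1 (r = 0.971), beside the inhibitory receptor LILRB4 (r = 0.974) and RILPL2 (r = 0.966). Nearest to NR4A3 were MPEG1, a pore-forming protein (r = 0.971), the receptor TLR10 (r = 0.961) and DTX4 (r = 0.959), and MPEG1 had log2 fold changes of -1.53, -1.13 and -0.15 with IB, KPT and PU in MAVER. For NAB2 they were the actin genes ACTB (r = 0.946) and ACTG1 (r = 0.941), and GM2A, a lysosomal lipid-binding protein (r = 0.916). The many pseudogene copies of the actin genes may make their counts uncertain, which was not measured. NAB1 had other neighbours, SRRT, an RNA-processing factor (r = 0.958), the noncoding RNA DANCR (r = 0.953) and ZNF232 (r = 0.952). SRRT changed by 0.49 with KPT and by -0.73 with PU in MAVER, the signs seen for NAB1.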

How the data were processed

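RNA-seq was made from 18 libraries in 6 groups of 3. Per the labels' protocols, stranded TruSeq libraries were sequenced as 50 bp single-end reads on a HiSeq 2500 at a stated depth of 30 M reads, aligned with STAR, quantified with Cufflinks and tested with DESeq2. Per the submitters' processing notes, the build was hg19; no version, counter, strand setting or annotation is given in the sources used here. The authors deposited 1 table per line of normalized counts (a signal that is never negative), in which the reads of a gene are divided by 1 factor per library. Whole reads were recovered for 100% of values within 0.01 read.

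Tests used limma 3.58.1 in R 4.3.3 (lmFit, eBayes with trend) on log2(normalized count + 1). Genes whose mean over a table was 10 or more were tested, with Benjamini-Hochberg adjustment over all genes tested. The 4 MAVER groups were fitted together. Tests were checked on simulated data, in which no gene with a mean as low as those of EGR1 and EGR2 in MAVER was changed. Calls on counts near 0 were thus not checked there. The recovered reads were also tested with edgeR 4.0.16 and DESeq2 1.42.0. Alternatives were pseudocounts of 0.5 and 5, other filters, other scalings, thinned reads, eBayes without trend, a replicate block, and each library left out. Each table held 28 gene names altered to dates, which are not named. Chi-square per degree of freedom was 1.39 to 4.92 over the 18 replicate pairs, and no pair agreed within sampling noise. The genes, the lists and the alternatives were chosen with earlier results of these data known. Named genes of a list are up to 4 called genes with the largest absolute change in a comparison, and fewer where space is short; of the genes most alike, the 3 with the highest correlation are named. Some genes that these rules or the marker lists take are not reported here.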

Additional observations from a re-analysis of the deposited data

Results flagged for a closer look

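Each result here was picked because the IB effect differed between the lines in the interaction test of limma (effect in JEKO1 minus that in MAVER, on the log2 scale). The differences were 8.26 for EGR1, 7.05 for EGR2, 2.88 for NR4A1, 3.79 for NR4A3 and 2.06 for NAB2. EGR3, which did not pass the filter on low values in MAVER, had a difference of 6.97 in the fit without that filter (limma adjusted p = 1.14e-08). The size of that value rests on counts near 0, with 5 reads in JEKO1 DMSO and 0 in MAVER IB, and so depends on the pseudocount. In all 6 genes the 3 JEKO1 libraries labelled IB were higher than the 3 DMSO libraries and the 3 MAVER IB libraries were lower than theirs. The genes were picked by that difference, so this is a description. Over all genes tested in both lines, 1260 of the 1415 called in both also moved in opposite directions. An exchange of the JEKO1 labels and an opposite response cannot be told apart from these values.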

How the results depend on the processing

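Over the single-gene results, 882 values under other settings kept their direction and side of the threshold, 13 lost a call, 7 gained one and 13 changed sign, all of these uncalled. With a filter at a mean of 50, which leaves 3 members in MAVER, the members called were 3 for IB, 2 for KPT and 1 for PU against DMSO, 3 for KPT and 3 for PU against IB, 2 for PU against KPT, and 3 for the difference between lines. Signs changed for NAB1 with IB in MAVER (0.0050 with equal totals, 0.0051 by edgeR, 0.0033 by DESeq2, 0.062 with thinned reads, -0.088 to 0.095 with 1 library left out), for EGR2 with PU (0.0090 with equal upper quartiles, -0.20 to 0.17 with 1 library left out), for NR4A1 with PU (-0.012 with equal totals, -0.089 to 0.13 with 1 library left out), and for EGR2 in PU against KPT (-0.27 with thinned reads). The cause was not tested. The same letter did not steadily pair libraries (correlations of deviations -0.24 to 0.30 over 21 pairs, 6 over 0.1). For IB and DMSO in JEKO1 the correlations were 0.13, -0.05 and 0.30 for A, B and C. A replicate block by letter raised the calls over all genes there from 2538 higher and 2341 lower to 2819 and 2688. With the letter as a replicate block, members called stayed at 6 for IB in JEKO1, 5 for IB, 4 for KPT and 2 for PU in MAVER, and none of the 50 single-gene calls changed. Over all genes, thinning gave 794 higher and 636 lower with IB in MAVER, against 1126 and 1071, and 1901 higher and 2945 lower for PU against IB, where the reads as deposited gave 3052 and 3066. Thinned reads lost the calls of NAB1 for KPT against DMSO and against IB, of NR4A3 for KPT against IB and of NAB2 for PU against IB.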
